A study of Mus musculus with 8 samples.

Results

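The Schlafen genes were followed in spleen cells of male mice that carry the Yaa chromosome, a Y chromosome known to hold a copied segment of the distal X chromosome with the RNA receptor gene Tlr7. The members are the 7 genes Slfn1, Slfn2, Slfn3, Slfn4, Slfn5, Slfn8 and Slfn9, out of 18193 genes named on the array, and they were taken as every probe set that the platform annotation gives to exactly 1 of these symbols. That rule gave 11 probe sets: 3 for Slfn5, 2 each for Slfn1 and Slfn9, and 1 for each of the other genes. The family was proposed with the difference between the groups already known, so its differences below are a description and carry no p-value. An additional probe set, 1450322_s_at, is annotated to Slfn3 and Slfn4 together and is given as such.

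There were 4 Yaa samples, from B6.SB-Yaa/J males, and 4 wild-type (WT) samples, from C57Bl/6J males, all 8 weeks of age and with no treatment in the labels. Each sample came from 1 mouse except Yaa 3, whose RNA came from the cells of 2 spleens. The source label of Yaa 2 also speaks of males in the plural, while the design text gives 1 spleen for it. Red cells had been lysed with ammonium chloride before RNA was extracted, and each RNA was hybridised to its own Affymetrix array.

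Schlafen proteins take their name from the German word for sleeping, because forced expression of the founding member Slfn1 arrested the growth of T cells. In the mouse they are grouped by size: short members such as Slfn1 and Slfn2, intermediate members such as Slfn3 and Slfn4, and long members with a helicase-like part, such as Slfn5, Slfn8 and Slfn9. Many are induced by type I interferon, and Slfn2 and Slfn4 are known from quiescent T cells and from monocytes and macrophages.

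All 7 genes lie in 1 cluster on chromosome 11, in the order Slfn5, Slfn9, Slfn8, Slfn2, Slfn1, Slfn4, Slfn3, with the pseudogene Slfn10-ps between Slfn8 and Slfn2 and with Slfn14 after Slfn3. The start of each gene in RefSeq (GRCm38.p6) is shown by the stretches around strings searched for in it. The longest string shared by the 250 bases before the starts of the short and intermediate genes Slfn1, Slfn2, Slfn3 and Slfn4 was ACTTCCTGG, in capitals below with up to 20 bases on each side, 5′ to 3′ on the gene's strand.

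Slfn1: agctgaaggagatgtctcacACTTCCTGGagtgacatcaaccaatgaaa
Slfn2: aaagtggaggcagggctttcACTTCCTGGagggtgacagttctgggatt
Slfn3: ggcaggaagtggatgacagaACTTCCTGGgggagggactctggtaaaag
Slfn4: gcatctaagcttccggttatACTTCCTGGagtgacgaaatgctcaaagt

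These stretches lie on the plus strand at chr11:83116726-83116774 for Slfn1, chr11:83065037-83065085 for Slfn2, chr11:83191268-83191316 for Slfn3 and chr11:83175093-83175141 for Slfn4. The string begins 74, 55, 42 and 73 bases before the start of Slfn1, Slfn2, Slfn3 and Slfn4. It was picked because these genes share it, so its absence elsewhere does not group the genes, and on either strand 0.7% of 32851 RefSeq windows of the same length held it. None of the windows of Slfn5, Slfn8 and Slfn9 did.

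A motif named for interferon was searched in the same windows. The core of the interferon-stimulated response element, searched as 2 copies of GAAA with any 2 bases between them on either strand, is in capitals below, again 5′ to 3′ on the gene's strand.

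Slfn5: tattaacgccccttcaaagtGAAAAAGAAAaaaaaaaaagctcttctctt
Slfn8: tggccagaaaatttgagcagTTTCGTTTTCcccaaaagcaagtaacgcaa
Slfn9: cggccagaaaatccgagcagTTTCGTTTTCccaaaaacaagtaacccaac

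These lie at chr11:82951927-82951976 on the plus strand for Slfn5, chr11:83020829-83020878 on the minus strand for Slfn8 and chr11:82991846-82991895 on the minus strand for Slfn9. The match in Slfn5 runs into a stretch of A. Of all windows 2.977% held a match, and those of Slfn1, Slfn2, Slfn3 and Slfn4 had none. The string TTCNNNGAA of gamma-activated sites was in 7.02% of all windows and in 0 of the 8 Schlafen windows (Slfn8 has 2 annotated starts). The windows of Slfn8 and Slfn9 were 80.2% identical over their alignment, against 53.4% for the next closest of the 21 pairs of genes, Slfn3 and Slfn8. The other pairs ran from 45.5%, and pairs within and across the size classes lay among each other (53.1% for Slfn1 and Slfn9, 47.0% for Slfn2 and Slfn4). A match is a string of letters and does not show a bound site.

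The window of Slfn4, the gene with the widest difference below, is given whole because it is poorer in G and C, at 29.6%, than the other members' windows, which ran from 48.0% for the upstream start of Slfn8 to 52.0% for Slfn3. It spans chr11:83174936-83175185 on the plus strand and ends at the base before the start, with the shared string in capitals.

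Slfn4: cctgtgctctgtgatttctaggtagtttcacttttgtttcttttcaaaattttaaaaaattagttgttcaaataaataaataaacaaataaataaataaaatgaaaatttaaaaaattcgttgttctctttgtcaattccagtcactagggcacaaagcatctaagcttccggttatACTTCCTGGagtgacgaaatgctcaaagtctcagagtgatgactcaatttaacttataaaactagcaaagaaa

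Each probe set has a MAS5 signal, which is an intensity. The deposited arrays were not at a common level, with trimmed mean signals of 106.9 to 193.1, so all arrays were quantile normalised. After that the median probe set of an array had a signal of 27.9. Levels below are these normalised signals, and means and differences are of log2(signal + 16), whose lowest possible value is 4, so the difference of a dim probe set is understated. Tlr7, which the Yaa chromosome copies, averaged 8.00 ± 0.38 in Yaa and 7.09 ± 0.22 in WT on that scale (SD, n = 4 each). Cell type markers on the Yaa 2 and Yaa 3 arrays were unlike those on the other arrays, as given below, and no 2 arrays held the same values.

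In outline, Slfn4 was higher in every Yaa sample than in any WT sample, Slfn8 was lower in every Yaa sample after quantile normalisation but overlapped in the deposited values, Slfn2 was higher in 3 of 4, and Slfn1, Slfn3 and Slfn5 overlapped between the groups. The 2 probe sets of Slfn9 disagreed. Over the 7 genes, each by its brightest probe set, 6 differences were positive and 1 negative, with a median of 0.18 on the log2 scale, against a median of -0.01 over the 22518 probe sets tested. Of those tested probe sets 47.6% had a positive difference. The filter on dim probe sets left 7 of the 11 Schlafen probe sets and 6 of the 7 genes, all but Slfn3. No Schlafen probe set had a limma adjusted p under 0.05 (3 had an unadjusted p under 0.05), where 0.00444% of all tested probe sets had an adjusted and 4.73% an unadjusted p under 0.05. With limma array weights 2, those of Slfn4 and Slfn8, had an adjusted p under 0.05, as did 0.635% of all tested probe sets. The family was chosen with this contrast known, so these counts describe it and do not test it. Of the 7 tested Schlafen probe sets, 2 (Slfn4 and the dimmer of Slfn9) lay wholly above WT and 1 (Slfn8) wholly below. Of all tested probe sets 2.43% lay above and 1.67% below. The dimmer Slfn9 probe set and the brightest Slfn5 probe set passed the filter only through Yaa. Slfn4 also prompted the choice of the family. For both reasons this count is a description too.

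**Figure D1:**
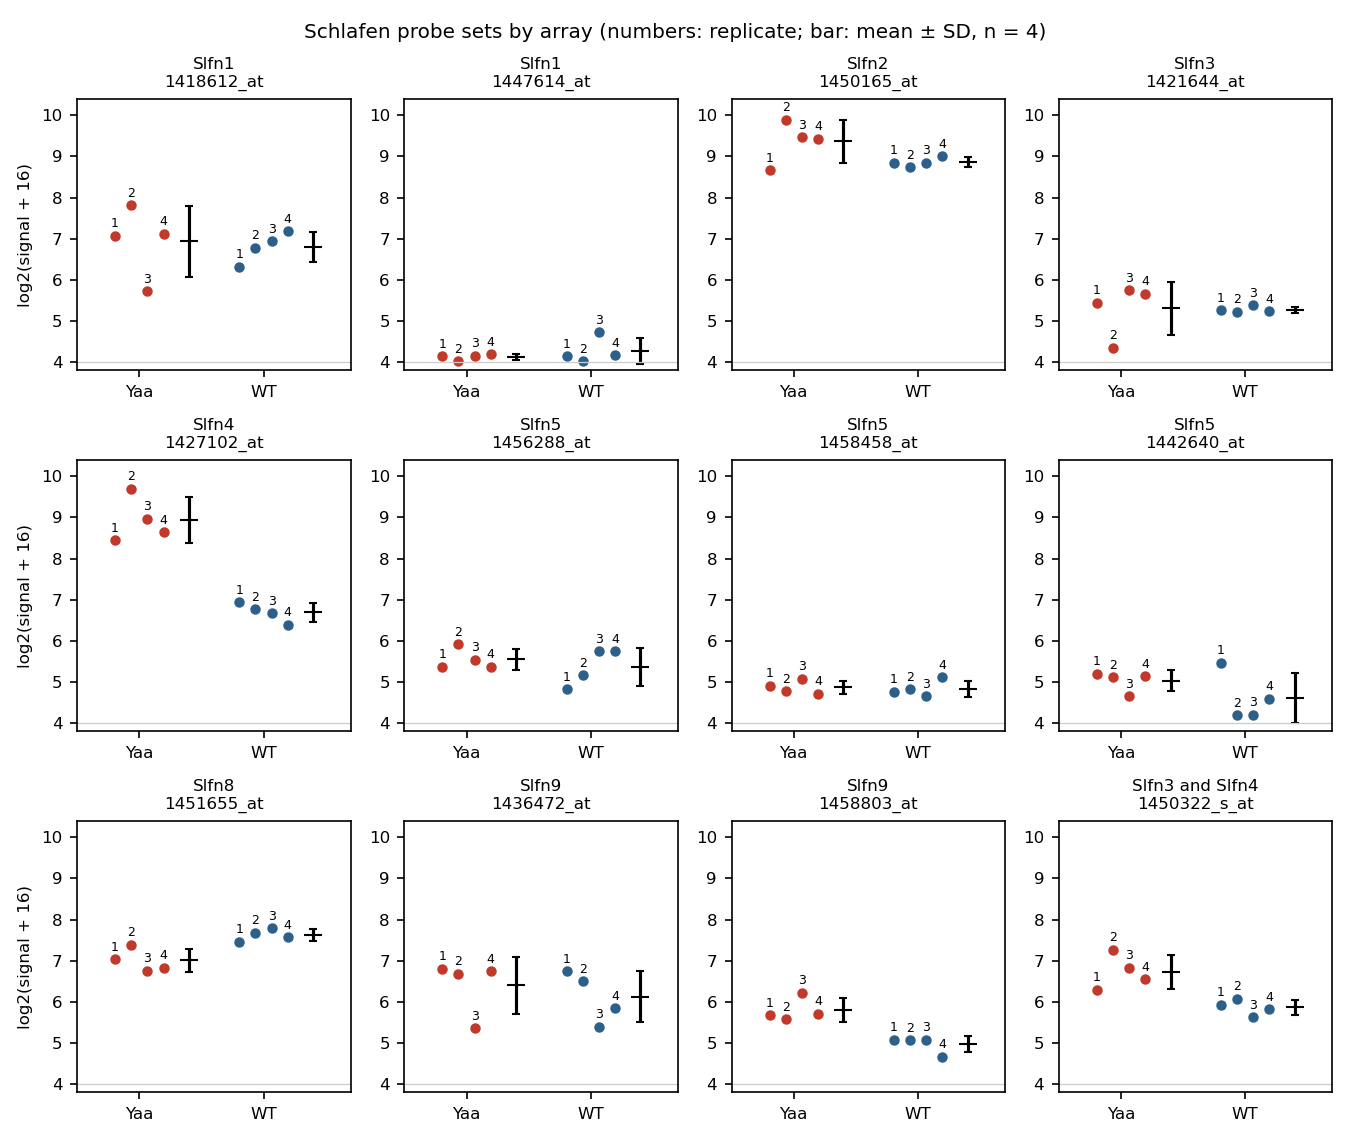
Level of each Schlafen probe set, as log2(signal + 16) after quantile normalisation, on each Yaa array (red, left) and WT array (blue, right). Numbers are replicates, bars are the mean ± SD (n = 4), and the grey line is the floor of 4. Slfn4 is higher in all 4 Yaa arrays and Slfn8 lower on this scale, while the remaining panels overlap except the dimmer Slfn9 probe set and the one shared by Slfn3 and Slfn4.

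**Figure D2:**
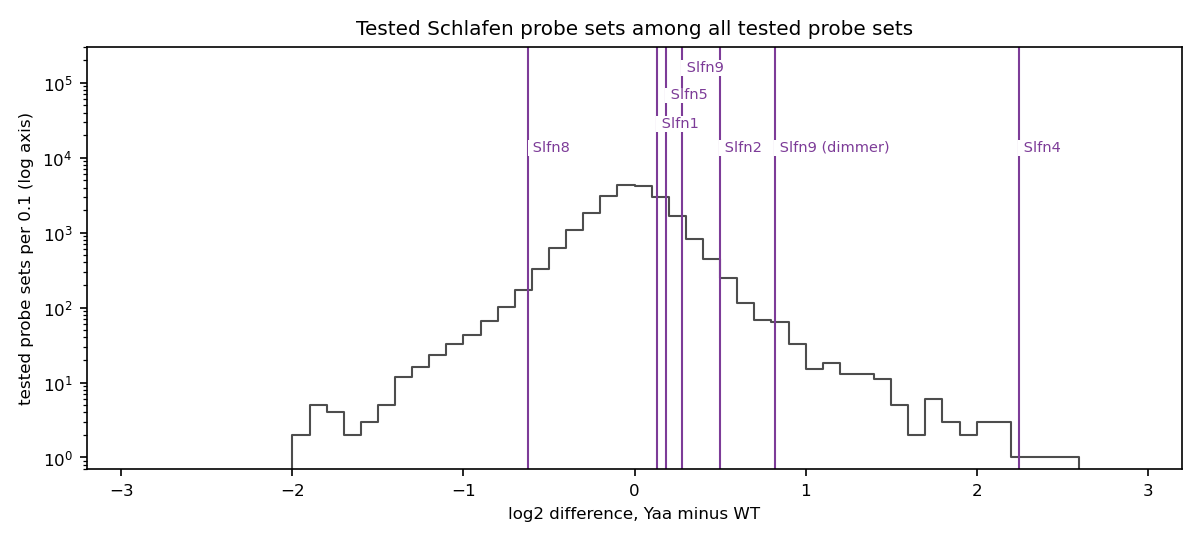
Number of tested probe sets (log axis) by log2 difference, Yaa minus WT, in bins of 0.1, with the 7 tested Schlafen probe sets as purple lines. Slfn4, at 2.24, lies at the far upper end, and Slfn8, at -0.62, on the lower side.

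Among the short members, Slfn2, a factor that keeps T cells and monocytes quiescent, had the brightest probe set of the family. Its normalised signals were 388.6, 935.1, 693.0 and 676.6 in Yaa 1 to 4, against 445.4, 413.9, 446.5 and 501.0 in WT 1 to 4. Yaa 2, Yaa 3 and Yaa 4 lay above all WT arrays and Yaa 1 lay below all of them, so the groups overlapped. The mean log2 level was 9.36 ± 0.51 in Yaa and 8.87 ± 0.11 in WT (SD, n = 4 each), a difference of 0.50 ± 0.24 (SE of the fit). The SD in Yaa was 4.67 times that in WT. Without Yaa 2 the difference was 0.33, and without Yaa 1 it was 0.73.

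Slfn1, the founding growth-arrest member, showed the widest spread among Yaa arrays. Its brighter probe set had signals of 118.9, 208.7, 37.2 and 123.5 in Yaa 1 to 4, against 63.9, 94.3, 106.4 and 129.2 in WT 1 to 4. Yaa 2 was the highest and Yaa 3 the lowest of all 8 arrays, with the WT arrays between them. Its mean log2 level was 6.94 ± 0.87 in Yaa and 6.81 ± 0.36 in WT (SD, n = 4 each), a difference of 0.13 ± 0.40 (SE). That difference was -0.16 without Yaa 2 and 0.54 without Yaa 3, so its sign rests on single arrays. The other Slfn1 probe set, 1447614_at, was at the floor, with signals of at most 2.31 in Yaa and of at most 10.6 in WT.

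Slfn4, an intermediate member known from myeloid cells, was the gene of the family that set the groups furthest apart. Its signals were 334.6, 815.6, 485.6 and 382.6 in Yaa 1 to 4, against 106.9, 93.6, 86.2 and 68.0 in WT 1 to 4. The lowest Yaa array stood above the highest WT array by a wide margin, and Yaa 2 was the highest. The mean log2 level was 8.94 ± 0.55 in Yaa and 6.70 ± 0.23 in WT (SD, n = 4 each), a difference of 2.24 ± 0.26 (SE), or 4.74-fold on that scale. It was the 4th largest difference among the 22518 tested probe sets, which is why the family was looked at. Leaving out any 1 array kept it between 2.0 and 2.40.

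Slfn3, the neighbour of Slfn4 and of the same size class, is known from T cells and intestine. Its own probe set was below the filter, with signals of 27.6, 4.45, 38.0 and 34.8 in Yaa 1 to 4, against 22.2, 21.5, 25.6 and 21.6 in WT 1 to 4. Yaa 1, Yaa 3 and Yaa 4 lay above the WT arrays and Yaa 2 far below them. On the log2 scale it averaged 5.31 ± 0.65 in Yaa and 5.27 ± 0.07 in WT (SD, n = 4 each), a difference of 0.03. Without Yaa 2 it was 0.34, and the sign turned without Yaa 1, Yaa 3 or Yaa 4.

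The probe set annotated to Slfn3 and Slfn4 together went with Slfn4. Its signals were 62.7, 138.0, 98.1 and 77.5 in Yaa 1 to 4, against 45.1, 51.6, 33.2 and 40.8 in WT 1 to 4. The Yaa arrays kept the order they had for Slfn4, with Yaa 2 highest and Yaa 1 lowest, and all lay above WT. On the log2 scale the mean was 6.74 ± 0.42 in Yaa and 5.87 ± 0.19 in WT (SD, n = 4 each), a difference of 0.87 ± 0.22 (SE). How much of this signal comes from either gene cannot be told apart.

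Among the long members, Slfn8 was the only gene with a negative difference. Its signals were 115.2, 152.1, 92.6 and 98.3 in Yaa 1 to 4, against 160.2, 189.6, 204.7 and 175.3 in WT 1 to 4. All Yaa arrays lay below all WT arrays, though Yaa 2 and WT 1 were close. In the deposited values Yaa 2, at 168.6, lay above WT 1, at 158.4, so the groups did not separate before normalisation. The mean log2 level was 7.01 ± 0.28 in Yaa and 7.63 ± 0.14 in WT (SD, n = 4 each), a difference of -0.62 ± 0.17 (SE). Leaving out any 1 array kept it between -0.75 and -0.54.

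Slfn9, the neighbour of Slfn8 with a similar upstream sequence, did not share that difference. Its brighter probe set, 1436472_at, had signals of 96.2, 87.3, 25.3 and 91.1 in Yaa 1 to 4, against 91.5, 74.5, 26.1 and 41.8 in WT 1 to 4. Yaa 3 and WT 3 were both low, and the groups overlapped throughout, with mean log2 levels of 6.40 ± 0.69 in Yaa and 6.12 ± 0.62 in WT (SD, n = 4 each), a difference of 0.28 ± 0.39 (SE).

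The dimmer Slfn9 probe set, 1458803_at, gave another picture. It had signals of 35.0, 31.6, 59.0 and 36.4 in Yaa 1 to 4, against 17.8, 17.8, 17.9 and 9.45 in WT 1 to 4. All Yaa arrays lay above all WT arrays, and Yaa 3, low in the brighter probe set, was the highest here. It averaged a log2 level of 5.80 ± 0.29 in Yaa and 4.98 ± 0.21 in WT (SD, n = 4 each), a difference of 0.82 ± 0.20 (SE). Its mean lay just above the filter, at 5.39 against a limit of 5.38, and WT alone lay below it, so it was tested only because Yaa was higher. Cross-hybridisation between Slfn8, Slfn9 and Slfn10-ps was not tested, since probe sequences were not used here.

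Slfn5, a long member known as an interferon-induced nuclear protein, was dim. Its brightest probe set, 1456288_at, had signals of 25.5, 44.6, 30.7 and 25.5 in Yaa 1 to 4, against 12.3, 19.8, 38.0 and 37.9 in WT 1 to 4. The Yaa arrays fell inside the span of WT except Yaa 2, which lay above it. The difference was 0.18 ± 0.25 (SE), and it was -0.002 without WT 1. The mean log2 level was 5.55 in Yaa and 5.37 in WT, against a filter limit of 5.38. This probe set was therefore tested only because Yaa was higher. The other Slfn5 probe sets were below the filter, with differences of 0.03 for 1458458_at and 0.41 for 1442640_at, both with overlapping groups.

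By mean log2 level over all arrays, each gene by its brightest probe set, the percentile among all probe sets was 90.5 for Slfn2, 79.9 for Slfn4, 74.6 for Slfn8, 69.5 for Slfn1, 62.3 for Slfn9, 51.5 for Slfn5 and 48.1 for Slfn3. Signals of different probe sets depend on their probes, so these percentiles say how bright a probe set was on the array and do not rank the genes by their RNA.

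Neighbours in the cluster had unlike differences. Slfn4, at 2.24, lies between Slfn1, at 0.13, and Slfn3, at 0.03, and Slfn8, at -0.62, lies between Slfn9, at 0.28, and Slfn10-ps, at 0.09. AI662270, a long non-coding RNA just after Slfn3, differed by -0.05. The 5 nearest measured genes on each side had differences from -0.89 to 0.46 with a median of -0.03. Of these 10 genes 4 were tested, limma called 0 and gave 1 an unadjusted p under 0.05, and 1, Taf15, did not overlap between the groups. Of all tested probe sets 4.73% had an unadjusted p under 0.05 and 4.1% did not overlap. Taf15, an RNA-binding protein of the transcription machinery, had means of 7.38 ± 0.15 in Yaa and 8.27 ± 0.08 in WT (SD, n = 4 each), but its other probe set was higher in Yaa by 0.26.

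**Figure D3:**
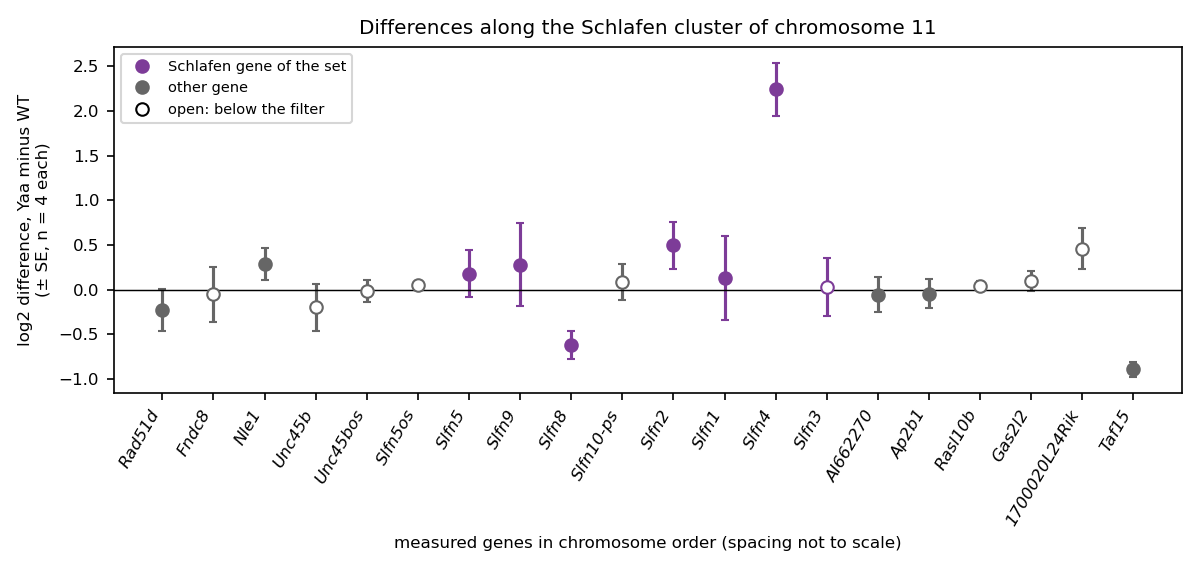
Log2 difference, Yaa minus WT, for measured genes along the cluster on chromosome 11, in gene order and not to scale; purple marks the 7 Schlafen genes, grey other genes and open circles genes below the filter, with bars for the SE of the difference of means (n = 4 each). Slfn4 alone stands above 0.5, between neighbours near 0.

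Interferon target genes were compared because Schlafen genes are known to be interferon-inducible. Of all tested probe sets 47.6% had a positive difference and 4.73% a limma unadjusted p under 0.05. Of 28 listed targets 25 were tested: 22 differences were positive and 3 negative, with a median of 0.30, and limma called 0 in either direction (5 had an unadjusted p under 0.05, all higher). Wholly above WT lay 4 of the 25 and wholly below 0, where 2.43% and 1.67% of all tested probe sets did. The 4 with the smallest p were Rtp4, a receptor chaperone, at 0.99 ± 0.19 (SE; limma adjusted p = 0.412), Oas1a, an RNA-sensing synthetase, at 0.58 ± 0.15 (adjusted p = 0.656), Cxcl10, a chemokine, at 0.81 ± 0.27 (adjusted p = 0.960) and Bst2, which tethers virions, at 0.55 ± 0.22 (adjusted p = 0.997). With array weights, and without Yaa 2 and Yaa 3 together, limma called Oas1a and Rtp4 higher. These settings called 143 and 105 of all 22518 tested probe sets. They are not separate from each other, since the weights were lowest for Yaa 2 and Yaa 3, at 0.218 and 0.223, against 0.836 to 2.73 for the other arrays.

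Receptors and signalling parts of that pathway showed no shared direction. Of 7 listed 6 were tested, with 3 positive and 3 negative differences, a median of -0.01, and 0 called by limma, adjusted or at an unadjusted p under 0.05. Ifnar2, a receptor chain, differed by 0.33 ± 0.18 (SE), Irf9, a transcription factor of the pathway, by 0.24 ± 0.17, the kinase Jak1 by -0.13 ± 0.17 and Stat2 by -0.04 ± 0.16.

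Yaa 2, the array with the highest Slfn4 and Slfn2, was the lowest Yaa array for the interferon targets. The mean log2 level of the 25 targets was 8.45, 8.07, 8.23 and 8.47 in Yaa 1 to 4, against 8.05, 8.07, 8.01 and 7.89 in WT 1 to 4. Yaa 2 lay inside the WT range by that mean and the other Yaa arrays above it, while 11 of the 25 targets were higher in Yaa 2 than in any WT array. The summed signal of the targets was 12412 in Yaa 2, against 15100 to 16680 in WT, but 1 gene, Rsad2, an antiviral enzyme, set that order. Rsad2 had signals of 8568, 3398, 9354 and 9005 in Yaa 1 to 4, against 8047, 7525, 7217 and 7286 in WT 1 to 4, and without it the sum was 9015 in Yaa 2, against 7814 to 8665 in WT. Whether the interferon targets have a part in the Schlafen differences was not tested.

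Neutrophil markers had another order than Slfn4 among the Yaa arrays. The summed signal of 13 tested neutrophil markers (of 14 listed; S100a9 and S100a8, the calprotectin subunits, were the brightest) was 56544, 13351, 37769 and 29233 in Yaa 1 to 4, against 14536, 9953, 8756 and 9365 in WT 1 to 4. In Yaa 2 it lay within the WT range, while Slfn4 stood at 815.6 there, the highest of all arrays. Of the 13 markers 5 (S100a9, Csf3r, Mmp8, Mmp9 and Cxcr2) were still higher in Yaa 2 than in any WT array. All 13 differences were positive, though Cxcr2 passed the filter only through Yaa, with its WT mean below the limit. limma called 0, and 9 had an unadjusted p under 0.05. Of all tested probe sets 47.6% had a positive difference and 4.73% an unadjusted p under 0.05. S100a9 differed by 1.47 and S100a8 by 1.30.

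Monocyte and macrophage markers all had positive differences, with a median of 0.49, while their sums overlapped between the groups. Without Yaa 3, Adgre1 was at -0.004 and Ms4a7 at -0.09, and the other markers of the list stayed positive. Of the 11 tested, 4 (Lyz2, Ccr2, Fcgr4 and Itgam) lay wholly above WT, where 2.43% of all tested probe sets did. The sum of the 11 (of 12 listed) was 13037, 14298, 17775 and 8857 in Yaa 1 to 4, against 7502, 8514, 8764 and 9019 in WT 1 to 4. In that sum Yaa 4 lay inside the WT range while its Slfn4 signal was 382.6. By mean log2 level the 11 markers were at 9.05, 9.12, 9.72 and 8.60 in Yaa 1 to 4, against 8.49, 8.58, 8.55 and 8.58 in WT 1 to 4, and there the groups did not overlap, Yaa 4 lying just above WT. The brightest, Lyz2 and Csf1r, differed by 0.98 and 0.49 (0.86 and 0.19 without Yaa 3). limma called 0 of the 11 (4 had an unadjusted p under 0.05, where 4.73% of all tested probe sets did). All tested markers of these 2 lists had passed the filter on dim probe sets, and the part of either cell type in the Slfn4 difference was not tested. In bulk RNA of spleen cells, more cells of a type and more RNA per cell cannot be told apart.

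Lymphocyte markers were low in Yaa 3, the array with the lowest Slfn1, Slfn8 and (in its brighter probe set) Slfn9. The sum of 9 tested B cell markers was 13327, 23569, 309 and 14246 in Yaa 1 to 4, against 13417 to 18852 in WT. The sum of 10 tested T cell markers was 7242, 12264, 459 and 6727 in Yaa 1 to 4, against 5582 to 9544 in WT. Yaa 2, the highest array for Slfn1, also had the highest sums of both lists. The brightest genes were Ms4a1 and Cd79a of B cells, at -1.89 and -1.77, and Ccr7 and Cd3d of T cells, at -1.14 and -1.07, and limma called 0 of either list (0 had an unadjusted p under 0.05). These differences rest on Yaa 3: without it they were 0.10 for Ms4a1, -0.15 for Cd79a, -0.02 for Ccr7 and 0.37 for Cd3d. Among the Yaa arrays Slfn8 had the same order as the T cell sum, Yaa 2, Yaa 1, Yaa 4 and Yaa 3 from high to low. The sum of plasmacytoid dendritic cell markers, given below, had that order too, and the B cell sum had another. This order was picked out after the values were seen, so it does not tie Slfn8 to a cell type. The part of these markers in the Schlafen values was not tested.

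The remaining markers were summed in the same way. The 6 tested NK cell markers ran from 1299 to 4659 in Yaa and from 1132 to 1639 in WT, with Yaa 3 the highest. Gzma differed by 0.57 and Nkg7 by 0.52 (0.11 and 0.31 without Yaa 3). Without Yaa 3, Klrk1 and Ncr1 turned negative, at -0.21 and -0.10, and the other markers of the list stayed positive. The 5 plasmacytoid dendritic cell markers ran from 756.3 in Yaa 3 to 3353 in Yaa 2, against 1755 to 2313 in WT, with Spib at -0.88 and Tcf4 at -0.09 (0.01 and 0.27 without Yaa 3). The other 3 of these 5 had positive differences, of 0.30 for Ccr9, 0.31 for Siglech and 0.63 for Klra17, and Klra17 lay wholly above WT. The 4 erythroid markers ran from 8955 in Yaa 2 to 30452 in Yaa 3, against 24133 to 29538 in WT, with Slc4a1 at -0.31 and Alas2 at -0.41. Yaa 1 and Yaa 4, at 25768 and 25508, lay inside the WT range of that sum and Yaa 3 above it, so only Yaa 2 lay below. The 4 platelet markers ran from 545.4 to 1022 in Yaa, against 810.8 to 1026 in WT, with Pf4 at -0.24 and Ppbp at -0.59. limma called 0 in these 4 lists, and 3 of their genes had an unadjusted p under 0.05, where 4.73% of all tested probe sets did. Yaa 2 was therefore the array with the highest Slfn1, Slfn2 and Slfn4 and the lowest Slfn3, and also the one with the lowest erythroid sum.

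**Figure D4:**
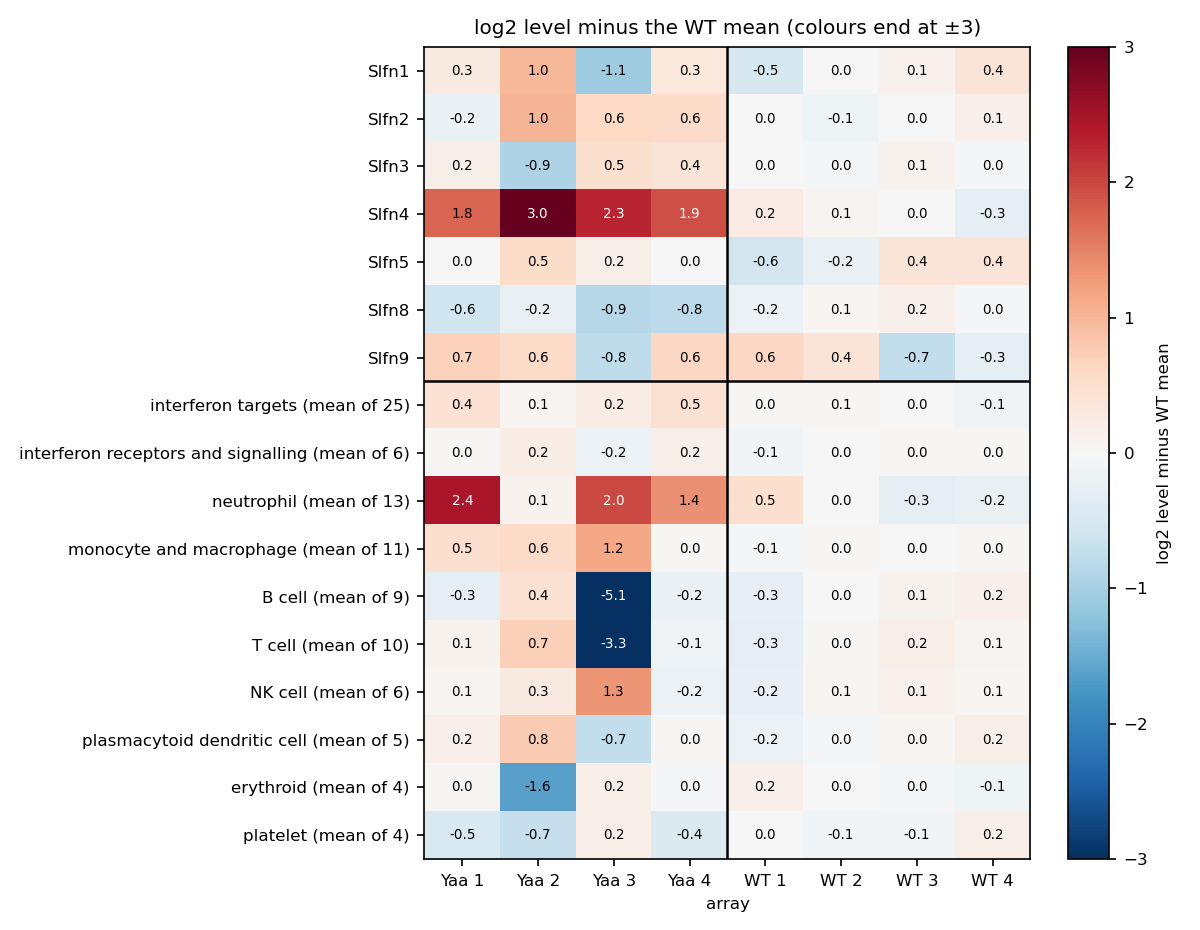
Log2 level minus the WT mean for the 7 Schlafen genes (upper rows) and the mean of each marker or interferon list (lower rows) on each array, Yaa arrays left of WT arrays; colours end at ±3. Slfn4 is higher on all 4 Yaa arrays and highest on Yaa 2, where the neutrophil list is lower than on the other Yaa arrays, and Slfn1 is lowest on Yaa 3, where the B and T cell lists are lowest.

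The genes with the pattern most like a Schlafen gene were those with the highest Pearson r of log2 level over the 8 arrays. They are given for Slfn4, Slfn8, Slfn2 and Slfn1, with no p because they were picked from all tested probe sets. For Slfn4 they were Bloc1s4 (r = 0.993), Nfam1 (0.964) and Xbp1 (0.958), which differed by 0.45, 0.76 and 0.37 between the groups, well short of Slfn4. For Slfn8 they were Rps19 (r = 0.971), Pdpr (0.966) and Ssr4 (0.963), which differed by -0.16, -0.24 and -0.40. For Slfn2 they were Mief1 (r = 0.982), Ybx1 (0.979) and Mettl2 (0.975), and for Slfn1 they were Selenok (r = 0.994), Fam3c (0.992) and Avl9 (0.989). With each group's mean taken off, the genes most like Slfn4 were Ctbs (r = 0.976), Bloc1s4 (0.974) and Hsbp1 (0.961). Those most like Slfn8 were then Samhd1 (r = 0.995), Fkbp1a (0.992) and Sfxn3 (0.990). Among the Schlafen genes themselves, the pair with the highest r was Slfn2 and Slfn4, at 0.756, and 0.711 with each group's mean taken off. Slfn4 and Slfn8 had r = -0.721 over the 8 arrays and 0.531 with the group means taken off, so within the groups they did not move against each other.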

How the data were processed

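The authors deposited a MAS5 intensity for each probe set (linear, per the submitters' processing notes); its version, scaling target and any filter were not stated in the labels. Of 45101 probe sets 64 were controls. All 8 arrays were quantile normalised, values were taken as log2(signal + 16), and the dimmer 50% of probe sets by mean log2 level were dropped, leaving 22518. Yaa was tested against WT in limma 3.58.1 (R 4.3.3; lmFit, eBayes with a trend), with Benjamini-Hochberg adjustment over all tested probe sets and a threshold of 0.05. The fit was tested on simulated data. The number of arrays limits the precision. Alternatives were other pseudocounts, scalings, filters and variance models, array weights, a replicate block and single arrays left out. Marker genes without Yaa 3, the interferon sum without Rsad2 and the overlap of Slfn8 under other scalings were added after seeing the data.

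Of annotated probe sets, 34945 had 1 symbol, 932 several and 9160 none; symbols were updated through Entrez IDs to GRCm38.p6. The brightest probe set stood for a gene. Sequences are RefSeq's (GRCm38.p6), matched by symbol for 7 of 7 members, and were aligned with Biopython 1.88.

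The members, gene lists and tests were chosen with earlier results of these data known. Named are all members, up to 4 genes of each interferon list by p, 5 neighbours a side, the 3 genes most like a member, and the 2 brightest markers of each list.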

Additional observations from a re-analysis of the deposited data

Results flagged for a closer look

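Each Schlafen probe set was looked at in each group for an array far from the other 3 by Dixon's criterion, which chance meets in about 1 of 20 groups, and 3 of the 22 met it. Slfn9 (1436472_at) in Yaa 3 had a log2 level of 5.37, with a gap to the next array that took up 0.917 of the group's range. Slfn9 (1458803_at) in WT 4 had 4.67, with a gap of 0.988 of the range, the other WT arrays lying within a few hundredths of each other. Slfn5 (1442640_at), a probe set below the filter, had 4.65 in Yaa 3, with a gap of 0.836 of the range.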

How the results depend on the processing

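Slfn4 and Slfn8 kept their sign in all 18 settings that refitted the data, with differences from 1.83 to 2.43 for Slfn4 and from -0.83 to -0.47 for Slfn8. The Slfn8 groups, apart after quantile normalisation, overlapped in the values as deposited. With arrays centred on their median they overlapped at a pseudocount of 64 and were apart at 16 and at 1. Slfn2 ranged from 0.15 with array weights to 0.73. Slfn9 ranged from 0.04 without WT 3 to 0.66 in its brighter probe set, and Slfn1, Slfn3 and Slfn5 changed sign in 3, 5 and 2 settings. The family's median ran from 0.03 to 0.46 with single arrays left out, 0.03 being without WT 1 and 0.46 without Yaa 3. With the values as deposited the median of all probe sets moved to -0.11. Over the array limma called 1 probe set; it called 0 with log2(signal + 1) and 0 with only probe sets above the 75th percentile of level (1032 and 485 at an unadjusted p under 0.05), 143 with array weights and 105 without Yaa 2 and Yaa 3 together. With single arrays left out it called 0 to 30, with 30 without Yaa 2, 10 without Yaa 4 and 0 without Yaa 1 or Yaa 3 (1018 and 1565 at an unadjusted p under 0.05). Slfn4 was among the calls with array weights, without Yaa 2, and without Yaa 2 and Yaa 3 together, and Slfn8 with array weights, where 0.635% of probe sets were called. The weights were lowest for Yaa 2 and Yaa 3, at 0.218 and 0.223, so these settings are not separate from each other. The family was chosen with its differences known, so these calls do not test it. Interferon genes called were 2 with array weights and 2 without Yaa 2 and Yaa 3 together, and 0 otherwise. With the replicate number as a block limma called 0 (731 at an unadjusted p under 0.05). Same-numbered arrays did not deviate together (correlations of -0.005, 0.016, -0.367 and -0.128). Other pairs of a Yaa and a WT array ran from -0.630 to 0.517. These correlations show no pairing by number, but so few of them cannot exclude one. The causes of these changes were not tested.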
